A study of Mus musculus with 32 samples.

Results

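The deposited count table of the cultured cells held 144587 autosomal ATAC-seq regions, and 64332 of them (44.5%) overlapped no region of the deposited developmental table by even 1 base. These 64332 are called cultured-only regions here, and the other 80255 autosomal regions, which overlapped a developmental region, are called shared. Every count below comes from this one table, in which a region carries counts whether or not a peak was called in a given library. A further 1490 of its 3265 regions on chromosome X met the same rule and were not described. In the other direction, 19206 of the 99037 developmental regions (19.4%) overlapped no region of the cultured table, chromosome X included.

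ATAC-seq uses the Tn5 transposase to cut and tag DNA that is free of packed nucleosomes, so reads pile up over open promoters and enhancers. The libraries were made from haematopoietic stem and progenitor cells (HSPCs) of C57BL/6 mice, labelled LSK, the fraction without lineage markers that carries Sca-1 and Kit and holds the blood stem cells. In the co-SHI group, HSPCs of E12.5 fetal liver (FL) were kept for 2 h in medium conditioned by E16.5 hepatocytes. In the SHI group, such cells spent 2 h in basic medium. The cultured table holds 3 columns of each of these groups and 3 columns named for uncultured E12.5 FL, and the developmental table holds 26 libraries of uncultured LSK cells in 9 groups. The fetal groups are E12.5 PL (PL is not spelled out in the labels), FL at E12.5 and FL at E16.5. The bone marrow (BM) groups are named perinatal, 1w, 3w, 4w, 6w or 8w by age. Time in culture, medium and handling cannot be told apart between the cultured columns and the E12.5 FL columns. Separate animals or cultures are not stated for the replicates, so a p-value here is set by how these samples vary, which may be technical variation alone.

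A deposited table of regions is usually the merged set of peaks over some set of libraries, so a region can enter a table because a library opened it or because deeper libraries let the peak caller find it. Promoters of widely used genes are typically CpG-rich and open in most cells, whereas distal enhancers are more cell-specific and weaker in ATAC-seq. The counts of the cultured table summed to 14280440 to 20092146 per co-SHI column, 7512258 to 11655458 per SHI column and 16097639 to 22061805 per E12.5 FL column. In the developmental table the 3 columns of the same E12.5 FL names summed to 3681041 to 3968734. At gene ends, 9 of 10 stem and progenitor markers (all but Mecom) had an autosomal region, with a summed level per marker of 29.1 to 30.7 CPM in co-SHI, 28.8 to 29.6 CPM in SHI and 25.2 to 26.2 CPM in the E12.5 FL columns. Of 8 hepatocyte markers 6 had none (Afp, Ttr, Apoa2, Serpina1a, Hnf4a, Fgb), and the list stood at 1.96 to 2.12 CPM per marker in co-SHI, 1.78 to 2.32 CPM in SHI and 1.73 to 2.46 CPM in the E12.5 FL columns. Sums were divided by all markers of a list, those without a region included. The 2 hepatocyte markers with a region summed to 15.7 to 17.0 CPM in co-SHI, 14.3 to 18.6 CPM in SHI and 13.8 to 19.7 CPM in the E12.5 FL columns. CPM are a column's counts scaled to a common total after TMM normalization.

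The labels and columns of the libraries raise 3 points that bear on the results. First, the peak lists and the count columns carried opposite culture labels. At the 574 cultured-only regions with a peak in all 6 cultured lists, the fold enrichment of each list followed a column of the other group, with r of 0.6 to 0.74, while its correlations with columns of its own group ran from -0.36 to 0.04. The list labelled co-SHI 1 followed the column named SHI 1, co-SHI 2 followed SHI 2 and co-SHI 3 followed SHI 3. The list labelled SHI 1 followed the column named co-SHI 1, SHI 2 followed co-SHI 3 and SHI 3 followed co-SHI 2. Over 36049 regions of the whole table with a peak in all 6 lists, all 6 lists again followed a column of the other group (r of 0.46 to 0.62, against -0.31 to -0.04 within the group). Each correlation is across regions on log2 values centred over the 6 libraries, with a list and its column sharing reads if they come from 1 library. Which of the 2 sets of names is right cannot be told from the files, so "columns named" and "lists labelled" are used below, and every co-SHI against SHI direction turns round if the columns are the misnamed set.

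**Figure D1:**
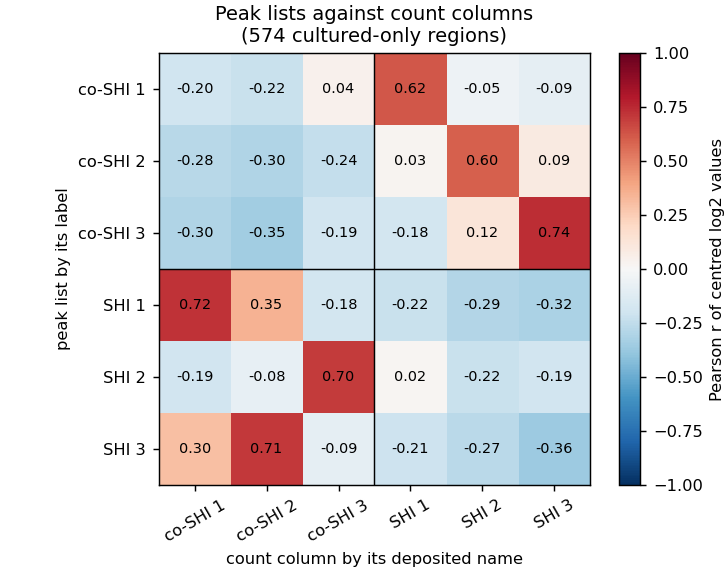
Pearson correlation between the fold enrichment of each deposited peak list (rows) and the level in each count column (columns), both log2 and centred over the 6 libraries, at 574 cultured-only regions with a peak in every list. The strong values (0.6 to 0.74) lie where a list labelled for one group meets a column named for the other.

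Second, the columns named E12.5 FL in the cultured table were not the counts of the developmental table. Over 54718 regions that matched between the tables (80% of each), the E12.5 FL 1, 2 and 3 columns of the cultured table held 3.92, 5.41 and 4.13 times the counts of the developmental columns of the same names. Their log2 counts correlated at 0.81 to 0.85 with any developmental E12.5 FL column, own name or not, against 0.96 to 0.97 among the 3 columns of the cultured table. They are therefore named as columns of the cultured table and set beside the cultured columns without a test. Whether they are other libraries or the same libraries counted otherwise was not tested. Last, the library titled 8w BM 3 carries a stage label of E12.5 and was used under its title.

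Sequences show what kind of promoter lay in the small part of cultured-only regions that overlapped one (1.74%). RefSeq promoter windows of GRCm38.p6, 250 bases before to 50 after a transcription start, were matched to the regions. Of the windows, 545 lay wholly inside a cultured-only region, 285 of them with predicted genes left out, as in the choice below. The bases before the start are given for 3 genes with few CpG dinucleotides, chosen as the highest in level among windows with 5 or fewer, for the highest with 15 or more, and, for contrast, for the highest shared window with 21. Pim1 encodes a survival kinase downstream of cytokines, Slfn2 a schlafen protein of lymphocyte quiescence, Exoc3l2 a relative of exocyst subunits, Dyrk1a a dual-specificity kinase and Fkbp2 a peptidyl-prolyl isomerase. CpG dinucleotides are in capitals.
Pim1 (cultured-only region, chr17:29492835-29493084, plus strand): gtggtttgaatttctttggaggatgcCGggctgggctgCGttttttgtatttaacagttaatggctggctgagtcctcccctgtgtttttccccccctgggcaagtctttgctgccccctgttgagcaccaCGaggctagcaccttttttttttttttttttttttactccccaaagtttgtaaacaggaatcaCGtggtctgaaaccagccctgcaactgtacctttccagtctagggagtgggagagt
Exoc3l2 (cultured-only region, chr7:19463037-19463286, plus strand): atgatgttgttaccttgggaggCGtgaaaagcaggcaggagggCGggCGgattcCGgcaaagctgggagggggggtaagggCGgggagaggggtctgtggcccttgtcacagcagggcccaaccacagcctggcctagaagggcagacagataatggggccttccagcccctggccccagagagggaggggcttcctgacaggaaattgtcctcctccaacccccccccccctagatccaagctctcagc
Slfn2 (cultured-only region, chr11:83064862-83065111, plus strand): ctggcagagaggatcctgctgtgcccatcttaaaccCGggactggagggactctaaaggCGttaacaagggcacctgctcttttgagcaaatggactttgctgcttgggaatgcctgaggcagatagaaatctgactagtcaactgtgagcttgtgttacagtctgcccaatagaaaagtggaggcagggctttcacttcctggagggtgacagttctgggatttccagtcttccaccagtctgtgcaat
Dyrk1a (cultured-only region, CpG-rich, chr16:94570657-94570906, plus strand): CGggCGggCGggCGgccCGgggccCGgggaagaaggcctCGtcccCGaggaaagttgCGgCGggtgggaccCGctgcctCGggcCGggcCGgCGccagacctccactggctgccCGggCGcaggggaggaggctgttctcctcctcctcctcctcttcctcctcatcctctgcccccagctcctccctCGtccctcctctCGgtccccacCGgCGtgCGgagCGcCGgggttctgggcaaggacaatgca
Fkbp2 (shared region, chr19:6980465-6980714, minus strand): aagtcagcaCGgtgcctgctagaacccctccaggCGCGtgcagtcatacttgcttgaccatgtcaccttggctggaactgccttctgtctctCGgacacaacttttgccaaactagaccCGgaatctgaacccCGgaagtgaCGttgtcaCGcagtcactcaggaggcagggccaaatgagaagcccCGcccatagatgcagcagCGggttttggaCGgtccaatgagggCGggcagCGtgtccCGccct

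The 250 bases held 4 CpG at Pim1, 5 at Exoc3l2, 2 at Slfn2, 24 at Dyrk1a and 14 at Fkbp2. The sparse pattern was the common one: the 1180 windows that overlapped a cultured-only and no shared region held a median of 5 CpG per 300 bases, against 21 in 14632 windows that overlapped a shared region and 3 in 15553 windows in no region. Of the cultured-only windows 13% held 15 or more CpG, against 68.2% of the shared windows and 35.2% of all 31365. The GGGCGG box of SP and KLF factors, read on both strands, was in 21.2% of cultured-only windows, 63.2% of shared windows and 35.95% of all, and its CG is part of the CpG count. CCGGAA, an ETS core that also holds CG, was in 7.46% of cultured-only windows, 25.8% of shared windows and 15.1% of all. CAGCTG, an E-box, was in 21.4% of cultured-only windows, 15.5% of shared windows and 16.3% of all. TGANTCA, read by AP-1, was in 8.22% of cultured-only windows, 5.24% of shared windows and 7.85% of all. GATAA, read by GATA factors, was in 25.2% of cultured-only windows, 15.05% of shared windows and 25.3% of all. TATAAA, the TATA box, was in 12.54% of cultured-only windows, 6.49% of shared windows and 13.6% of all. TGTGGT, read by RUNX factors, was in 19.8% of cultured-only windows, 13.1% of shared windows and 16.7% of all. CCAAT, read by NF-Y, was in 35.2% of cultured-only windows, 36.5% of shared windows and 37.3% of all. A match is a description of letters in these windows, and a window without one says nothing of the factor.

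The regions at these starts were moderately open in all columns. Pim1 stood at 9.98, 10.8 and 12.6 CPM in the co-SHI columns, 10.1, 15.1 and 14.7 CPM in the SHI columns and 9.17, 8.64 and 8.12 CPM in the E12.5 FL columns. All 6 cultured columns were above the E12.5 FL columns, and no list held a peak there. Exoc3l2 had 12.3, 11.4 and 7.57 CPM in co-SHI, 7.49, 7.01 and 8.62 CPM in SHI and 3.04, 3.68 and 3.48 CPM in the E12.5 FL columns. Slfn2 had 7.42, 6.5 and 6.97 CPM in co-SHI, 6.95, 10.0 and 7.47 CPM in SHI and 4.77, 3.18 and 3.77 CPM in the E12.5 FL columns. Dyrk1a had 10.9, 11.4 and 12.2 CPM in co-SHI, 11.9, 12.8 and 11.8 CPM in SHI and 4.94, 4.74 and 6.44 CPM in the E12.5 FL columns. At each of these 3 starts too, the cultured columns lay above the E12.5 FL columns, which the choice favours, since the starts were ranked by the mean of the 6 cultured columns. edgeR's test between the co-SHI and SHI columns gave adjusted p of 0.62 for Pim1, 0.32 for Exoc3l2, 0.75 for Slfn2 and 0.93 for Dyrk1a.

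Cultured-only regions also held miRNA genes. Of 919 autosomal RefSeq hairpins, 39 overlapped a cultured-only region and 88 a shared one. The highest in level was the region of Mir142, which encodes miR-142, a miRNA abundant in blood cells. The mature sequences of Mir142, Mir1983 and Mir129-2 are shown because their regions were the 3 highest, with the seed (bases 2 to 8, RefSeq, GRCm38.p6) in capitals. No seed is shared among them.
mmu-miR-142a-5p (chr11:87756867-87756887, plus strand): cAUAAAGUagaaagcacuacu
mmu-miR-142a-3p (chr11:87756903-87756925, plus strand): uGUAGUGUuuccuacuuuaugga
mmu-miR-1983 (chr13:21896930-21896950, minus strand): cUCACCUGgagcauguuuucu
mmu-miR-129-5p (chr2:94241419-94241439, minus strand): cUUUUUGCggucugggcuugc
mmu-miR-129-2-3p (chr2:94241376-94241397, minus strand): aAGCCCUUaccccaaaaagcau

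The Mir142 region (chr11:87756427-87756942, mm10, 629 bp from a developmental region, nearest named gene Tspoap1) had 21.2, 26.9 and 20.8 CPM in the co-SHI columns, 21.6, 24.5 and 20 CPM in the SHI columns and 9.47, 7.79 and 8.47 CPM in the E12.5 FL columns. The cultured columns, by which the miRNA regions were ranked, did not overlap the E12.5 FL columns, and co-SHI and SHI overlapped each other (log2 fold change 0.09, SE 0.14, edgeR adjusted p = 0.85). It had a peak in 5 of the 6 cultured lists and in none of the 26 developmental lists. A second miRNA gene, Mir142b, lies on the opposite strand of this region, as Mir129b does at Mir129-2, and ATAC-seq does not tell strands apart. The Mir1983 region had 5.71 to 8.59 CPM in co-SHI, 6.69 to 9.48 CPM in SHI and 4.47 to 6.61 CPM in the E12.5 FL columns. The Mir129-2 region had 5.85 to 7.74 CPM in co-SHI, 5.78 to 7.01 CPM in SHI and 5.18 to 6.55 CPM in the E12.5 FL columns. In both, cultured and E12.5 FL columns overlapped.

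Cultured-only regions lay away from genes' ends more often than shared regions. Within 1 kb of either end of a gene span lay 3523 cultured-only regions (5.48%) and 16678 shared regions (20.8%). Inside gene spans lay 45.8% of cultured-only and 41.7% of shared regions, and between genes but within 50 kb of one 25.6% and 24.95%. No gene lay within 50 kb of 23.1% of cultured-only and 12.53% of shared regions. A RefSeq promoter window was overlapped by 1084 cultured-only regions (1.74% of those on chromosomes with windows) and 11864 shared regions (15.3%). The share that was cultured-only differed little by chromosome, with 39.3% on chromosome 19 as the lowest and 47.2% on chromosome 1 as the highest. The cultured-only regions were also short. Of them 56.7% had the shortest width in the table, 501 bp, against 10.3% of shared regions, and the median widths were 501 bp and 528 bp. They covered 34.4 Mb, and the shared regions covered 47.9 Mb. Their median distance from the nearest developmental region was 6592 bp. Of them 1478 (2.30%) lay within 100 bp of one and 7200 (11.2%) more than 50 kb away. At the edge of the rule, the 1478 had median levels of 2.33 CPM in co-SHI, 2.43 CPM in SHI and 2.38 CPM in the E12.5 FL columns. The 762 shared regions that overlapped a developmental region by 100 bases or fewer had 2.35 CPM in co-SHI, 2.35 CPM in SHI and 2.32 CPM in the E12.5 FL columns.

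Most of the cultured-only regions had no deposited peak behind them. Of the 64332, 43105 (67.0%) overlapped no peak in any of the 6 cultured lists, against 11.98% of shared regions, and 42364 (65.8%) overlapped no peak in any of the 32 lists of the series. Just 574 (0.892%) had a peak in all 6 cultured lists, against 43.3% of shared regions. Width followed peaks: 77.7% of those without a cultured peak had the shortest width, against 14.0% of those with one. In the developmental lists, 1967 cultured-only regions (3.06%) had a peak in at least 1 list and 99 in 5 or more. By group of developmental lists, 325 had a peak in E12.5 PL, 166 in E12.5 FL, 40 in E16.5 FL, 201 in perinatal BM, 546 in 1w BM, 246 in 3w BM, 373 in 4w BM, 385 in 6w BM and 458 in 8w BM (439 without 8w BM 3, whose stage label differs).

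**Figure D2:**
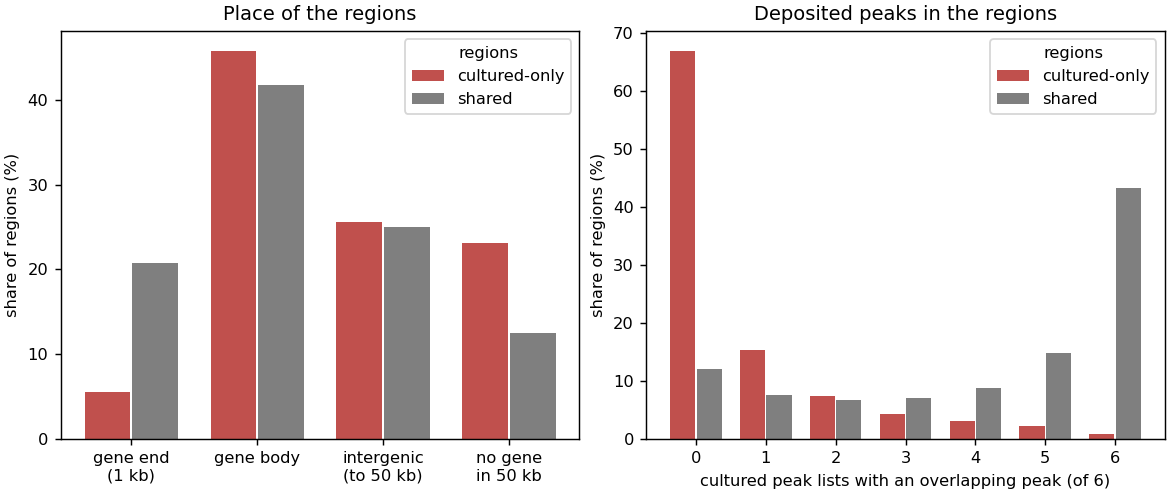
Left, share (%) of cultured-only (red) and shared (grey) autosomal regions by place relative to genes. Right, share of each class with an overlapping peak in 0 to 6 of the cultured lists: 67.0% of cultured-only regions have none, and 43.3% of shared regions have one in all 6.

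Read from the lists, cultured-only regions held 7.82%, 2.76% and 12.6% of the autosomal peaks of the lists labelled co-SHI 1, 2 and 3 and 15.8%, 12.55% and 13.2% of those labelled SHI 1, 2 and 3. All 3 SHI-labelled values were above co-SHI 1 and 2, while co-SHI 3 lay among them. The log2 odds ratio of co-SHI over SHI was -1.19 (exact permutation test over libraries, two-sided, p = 0.2, smallest possible 0.1). The lowest share belonged to the list labelled co-SHI 2, which has the fewest autosomal peaks (41154) and followed the column of fewest counts. With 41154 peaks taken from each list the log2 odds ratio was -0.41. In the developmental lists the share ran from 0.12% to 0.709%. The authors' fold enrichment of peaks in the lists labelled co-SHI had medians of 5.07 to 5.35 in cultured-only and 6.88 to 7.53 in shared regions. In the lists labelled SHI the medians were 4.84 to 5.43 in cultured-only and 6.54 to 7.5 in shared regions.

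The cultured-only regions took between 11.9% and 14.75% of the counts of every column, and the columns named for uncultured cells had the highest shares. They held 13.84% (13.83 to 13.86), 13.5% (13.48 to 13.51) and 11.9% (11.88 to 11.91) of the autosomal counts of the columns named co-SHI 1, 2 and 3. For SHI 1, 2 and 3 these were 12.47% (12.45 to 12.49), 13.57% (13.54 to 13.59) and 12.32% (12.3 to 12.34). In the E12.5 FL columns they were 14.28% (14.26 to 14.3), 14.75% (14.74 to 14.77) and 14.55% (14.54 to 14.57). Ranges are Wilson 95% intervals and cover counting error only. Group means were 13.1 ± 1.0% in co-SHI, 12.8 ± 0.68% in SHI and 14.5 ± 0.24% in the E12.5 FL columns (SD, n = 3 each). co-SHI and SHI overlapped, with a log2 odds ratio of 0.04 (exact permutation test, two-sided, p = 0.9), and the 3 E12.5 FL columns were above all 6 cultured columns, a description with no test because E12.5 FL peaks may have entered the developmental table. Split by peaks, the regions with a cultured peak held 6.36 ± 0.41% of counts in co-SHI, 6.04 ± 0.14% in SHI and 6.22 ± 0.13% in the E12.5 FL columns, overlapping ranges. The regions without one held 6.72 ± 0.64% in co-SHI, 6.75 ± 0.66% in SHI and 8.31 ± 0.11% in the E12.5 FL columns, whose lowest value was 8.2% and the highest cultured one 7.47%. A region lacks a cultured peak partly because its cultured signal is low, so this split favours lower cultured values and is given as a description.

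**Figure D3:**
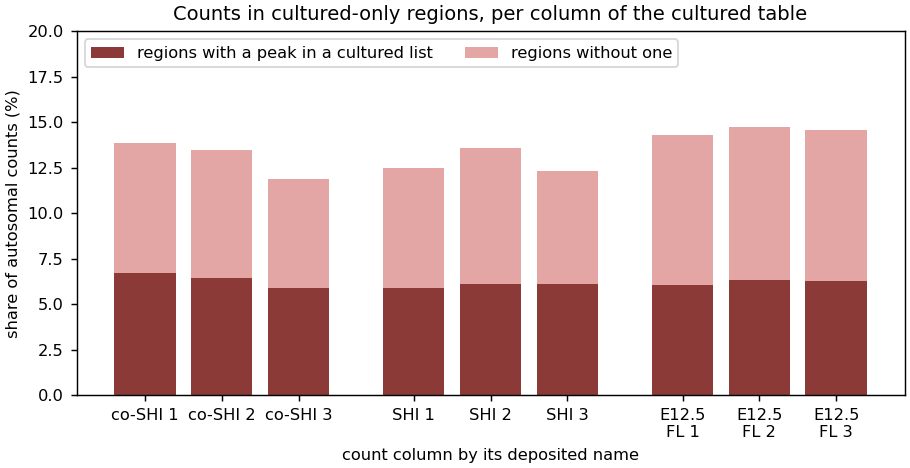
Share of autosomal counts that fell in cultured-only regions, per column of the cultured table by its deposited name, split into regions with (dark) and without (light) a peak in a cultured list. The 9 columns lie between 11.9% and 14.75%, and the 3 E12.5 FL columns are the highest.

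Per base, counts in cultured-only over shared regions had a ratio of 0.21 ± 0.019 in co-SHI, 0.204 ± 0.012 in SHI and 0.237 ± 0.0045 in the E12.5 FL columns (SD, n = 3 each). The median cultured-only region had 1.56 to 1.76 CPM in co-SHI columns, 1.6 to 1.79 CPM in SHI columns and 1.73 to 1.74 CPM in E12.5 FL columns, and the median shared region had 5.34 to 5.64 CPM in co-SHI, 5.5 to 5.87 CPM in SHI and 5.63 to 5.67 CPM in E12.5 FL columns. In counts, the median cultured-only region held 21 to 34 per co-SHI column, 13 to 18 per SHI column and 29 to 41 per E12.5 FL column, which limits single regions. Between 0.00777% and 0.389% of the cultured-only regions had 0 counts in a given cultured column. Just 1472 (2.29%) reached the median level of shared regions, and 204 (0.317%) reached 10 CPM, against 23058 shared regions (28.7%). Levels rose with the number of lists that held a peak: regions with none had medians of 1.38 CPM in co-SHI, 1.38 CPM in SHI and 1.52 CPM in E12.5 FL columns, and regions with all 6 had 5.56 CPM in co-SHI, 5.82 CPM in SHI and 4.17 CPM in E12.5 FL columns. The peak lists came from the same kind of reads, so the lists and the levels are not independent. Shared regions with all 6 had 12.9 CPM in co-SHI, 13.2 CPM in SHI and 12.3 CPM in E12.5 FL columns. Between columns of a group, log2 levels over cultured-only regions correlated at 0.73 to 0.8 in co-SHI, 0.59 to 0.66 in SHI, the shallowest columns, and 0.74 to 0.78 in E12.5 FL, against 0.93 to 0.97 over shared regions.

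**Figure D4:**
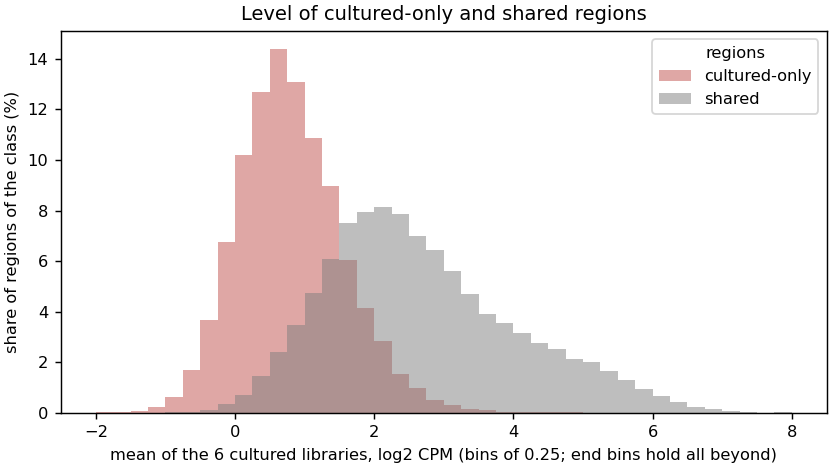
Distribution of the mean level over the 6 cultured columns (log2 CPM) in cultured-only (red) and shared (grey) regions, as the share of each class per bin. The medians are 1.68 CPM and 5.56 CPM, and 2.29% of cultured-only regions reach the shared median.

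Set against the E12.5 FL columns region by region, most cultured-only regions overlapped. Of all 147852 regions in the table, 11.6% had all 6 cultured columns above all 3 E12.5 FL columns and 9.17% had all 6 below. Of the cultured-only regions 3714 (5.77%) were above and 5211 (8.1%) below, both under those shares. Cultured-only regions held fewer counts than shared regions, and counting noise makes full separation rarer, so nothing is read from the lower shares. The 21227 with a cultured peak had 11.9% above and 5.56% below, and the 43105 without one had 2.77% above and 9.35% below. Those with peaks in 4 or more cultured lists, 3893 in number, had 22.5% above. The peaks were called from cultured libraries, so splitting by them favours these directions, and nothing is read from the split. Shared regions had 16.4% above and 10.1% below, and shared gene ends 36.9% above.

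The 10 most open cultured-only regions near a gene, 1 per gene, ranked by the mean of the cultured columns, all lay within 2403 bp of a developmental region. This ranking favours cultured columns above the E12.5 FL columns. Klhl24, a substrate adaptor of a ubiquitin ligase, was the highest, with 43.4, 42.7 and 43.8 CPM in co-SHI, 45.0, 43.3 and 44.1 CPM in SHI and 38.4, 35.8 and 33.8 CPM in the E12.5 FL columns (chr16:20097283-20097783). Its region had a peak in all 32 lists and lay 87 bp from a developmental region. Oxct1, a ketone body enzyme, averaged 33.1 ± 1.9 CPM in co-SHI, 31.0 ± 2.0 CPM in SHI and 26.6 ± 4.5 CPM in the E12.5 FL columns, with peaks in 25 developmental lists at 325 bp. Zfpm1, a GATA cofactor, averaged 29.0 ± 4.6 CPM in co-SHI, 29.7 ± 7.6 CPM in SHI and 20.5 ± 2.8 CPM in the E12.5 FL columns, with peaks in 26 developmental lists at 227 bp. At Klhl24 and Zfpm1 every cultured column was above the E12.5 FL columns, and at Oxct1 they overlapped. Of the other 7 regions, Eef1a1 had a peak in 1 developmental list and the rest in none. The Ddx5 region, at the end of an RNA helicase gene (chr11:106787354-106788006), had 19.7, 22.9 and 26.1 CPM in co-SHI, 28.1, 27.2 and 21 CPM in SHI and 13.2, 11.1 and 10.4 CPM in the E12.5 FL columns. The Midn region (chr10:80150328-80151044), in the gene of midnolin, which takes nuclear proteins to the proteasome, had 21.3 to 25.3 CPM in co-SHI, 21.3 to 26.7 CPM in SHI and 9.29 to 11.8 CPM in the E12.5 FL columns. Both regions stood apart from the E12.5 FL columns. Jun, an AP-1 subunit and immediate early gene, had a region inside its span (chr4:95050456-95050989) at 22.6 to 25.2 CPM in co-SHI, 17.6 to 25.5 CPM in SHI and 12.9 to 18.0 CPM in the E12.5 FL columns, where SHI 2 was below the highest E12.5 FL column. The Rab10 region, near a trafficking GTPase, averaged 32.5 ± 8.4 CPM in co-SHI, 29.8 ± 5.7 CPM in SHI and 13.2 ± 1.8 CPM in the E12.5 FL columns. The Dhx37 region, near a helicase of ribosome assembly, averaged 28.5 ± 1.7 CPM in co-SHI, 28.9 ± 0.71 CPM in SHI and 20.7 ± 2.2 CPM in the E12.5 FL columns. At both, the cultured columns lay above the E12.5 FL columns. The Sfi1 region, in a centrosome gene, averaged 30.4 ± 6.6 CPM in co-SHI, 24.9 ± 7.2 CPM in SHI and 15.1 ± 2.4 CPM in the E12.5 FL columns, with no peak in any list. The Eef1a1 region, near a translation elongation factor, averaged 20 ± 4.0 CPM in co-SHI, 26.1 ± 5.4 CPM in SHI and 10.7 ± 2.5 CPM in the E12.5 FL columns. None of the 10 passed the test between co-SHI and SHI in edgeR (adjusted p of 0.26 to 0.99). Of the 50 highest cultured-only regions, 10 lay within 500 kb of the first region of their chromosome, against 277 of all 64332 cultured-only regions. Among the regions named above, Sfi1 began at 3152940 on chromosome 11 and Rab10 at 3237011 on chromosome 12. How uniquely reads map at such places was not tested.

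Away from genes, a pair of neighbouring regions on chromosome 9 (chr9:3020312-3020812 and chr9:3021905-3022405) was carried by 2 columns. The first had 17.9, 19.9 and 14.6 CPM in co-SHI, 43.4, 78.2 and 11 CPM in SHI and 8.82, 4.95 and 8.53 CPM in the E12.5 FL columns. SHI 1 and SHI 2 were high and SHI 3 was below all co-SHI columns, so the groups overlapped although edgeR called it (log2 fold change -1.29, SE 0.28, adjusted p = 0.025). Neither region of the pair had a peak in any list. They began at 3020312 and 3021905 on chromosome 9, lower positions than those of Sfi1 and Rab10 on their chromosomes. How uniquely reads map there was not tested either. On chromosome 8, a region (chr8:96159822-96160347) had peaks in all 6 cultured and no developmental list. It stood at 23.8, 24.3 and 30.1 CPM in co-SHI, 20, 17.5 and 15 CPM in SHI and 3.81, 3.34 and 2.84 CPM in the E12.5 FL columns. None of the groups overlapped, and co-SHI was called higher than SHI (log2 fold change 0.59, SE 0.14, edgeR adjusted p = 0.04). These regions too were ranked by the mean of the cultured columns, which favours cultured levels above the E12.5 FL columns.

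Of 19984 named genes, 12898 were the nearest within 50 kb of at least 1, with a median of 2 each, and 1115 of these were nearest to no shared region. Most regions went to Auts2, a neurodevelopmental chromatin gene (58 cultured-only and 31 shared regions, over 1106 kb), Wwox, a fragile-site oxidoreductase gene (51 and 42), Lrmda, a melanocyte differentiation gene (49 and 25), and Rbfox1, a neuronal splicing factor (47 and 14). Macrod2 (46 and 28), Dlg2 (44 and 31), Tenm4 (44 and 40), Celf2 (42 and 25), Foxp1 (42 and 54) and Rora (42 and 31) followed, and the 10 genes had spans of 597 kb or more. A longer gene has more room for regions. Genes with cultured-only regions alone included Bmp5, a bone morphogenetic protein (10), Il34, a ligand of the macrophage CSF receptor (10, span 64.1 kb), Nell1, a secreted growth factor of bone (10), and Cntnap4, a synaptic adhesion protein (9). Abca12, Mroh9 and Wdpcp had 8 each, and Cldn24 (span 0.663 kb), Cntnap3 and Dync2h1 had 7 each.

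By gene list, the share of cultured-only regions was smallest at immediate early genes and largest at neuronal genes. Over all regions within 50 kb of a named gene 41.3% were cultured-only. For immediate early and AP-1 genes it was 22.4% (55 of 245), for NF-kB and inflammatory genes 25.9% (42 of 162), for homing and adhesion genes 28.2% (58 of 206), for interferon response genes 28.6% (24 of 84) and for JAK-STAT targets 28.8% (47 of 163). HSPC identity genes stood at 34.8% (188 of 541), macrophage and dendritic genes at 35.1% (59 of 168), hepatocyte genes at 42.9% (30 of 70), erythroid genes at 43.4% (56 of 129), lymphoid and B cell genes at 46.4% (117 of 252), fetal-type genes at 48.3% (69 of 143) and neuronal and sensory genes at 56.1% (148 of 264). The remaining 12 lists lay between 29.5% (trophoblast and keratin, 18 of 61) and 43.0% (stromal, 61 of 142). These are counts with no test.

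Marker and fetal-type genes were looked at singly. Kit, the stem cell factor receptor, was nearest to 11 cultured-only and 10 shared regions. Its highest cultured-only region lay inside the gene (chr5:75581852-75582406) with 3.84, 3.63 and 5.05 CPM in co-SHI, 4.99, 2.61 and 4.18 CPM in SHI and 3.69, 3.18 and 2.38 CPM in the E12.5 FL columns, overlapping ranges. Ly6a, which encodes Sca-1, had 1 cultured-only and 2 shared regions, the first at 2.08 to 3.2 CPM in co-SHI, 2.2 to 4.62 CPM in SHI and 1.91 to 2.32 CPM in the E12.5 FL columns. Ptprc, which encodes CD45, had 4 and 10, the highest cultured-only one at 2.52 to 3.86 CPM in co-SHI, 1.24 to 4.4 CPM in SHI and 1.74 to 1.99 CPM in the E12.5 FL columns. Alb, the hepatocyte albumin gene, had 2 and 3, the highest cultured-only one at 0.297 to 1.41 CPM in co-SHI, 0.535 to 2.58 CPM in SHI and 1.19 to 1.33 CPM in the E12.5 FL columns. Of the fetal-type genes, Lin28b, an RNA-binding protein that blocks let-7, had 9 cultured-only and 3 shared regions, its highest cultured-only one inside the gene at 9.4 ± 0.61 CPM in co-SHI, 9.16 ± 3.5 CPM in SHI and 8.24 ± 0.66 CPM in the E12.5 FL columns. Hmga2, a chromatin protein, had 15 and 22, the highest cultured-only one at 5.75 ± 1.3 CPM in co-SHI, 6.74 ± 0.95 CPM in SHI and 7.22 ± 0.81 CPM in the E12.5 FL columns. Igf2bp3, an mRNA-binding protein, had 3 and 10, with 3.38 ± 0.43 CPM in co-SHI, 3.95 ± 0.72 CPM in SHI and 5.04 ± 1.1 CPM in the E12.5 FL columns (SD, n = 3 each). Of 45 regions of these 7 genes that were tested, edgeR and DESeq2 called 0, and 2 had an unadjusted p under 0.05.

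Columns named co-SHI and SHI differed at few cultured-only regions. edgeR's quasi-likelihood test, fitted over the whole table, called 0.56% of all 145129 regions tested at an adjusted p under 0.05 (0.228% higher and 0.332% lower in co-SHI). Of the cultured-only regions 61791 passed the filter on low counts, and 191 of them (0.309%) were called, 76 higher and 115 lower in the co-SHI columns. Of the shared regions 605 of 80167 (0.755%) were called, and 6114 cultured-only regions had an unadjusted p under 0.05. The order of these shares was not stable. Cultured-only regions had the higher share without co-SHI 1 (0.131% against 0.121% of shared regions), without co-SHI 2 (0.154% against 0.136%) and without SHI 2 (0.173% against 0.168%). DESeq2 called 83, of them 17 higher and 66 lower. The median log2 fold change was 0.04 over cultured-only and -0.02 over shared regions. Of tested regions with a cultured peak 0.75% were called, and of those without one 0.0788%. The peaks were called from the cultured libraries that are compared here. Regions with a peak also had higher median levels (2.58 against 1.38 CPM in co-SHI, 2.5 against 1.38 CPM in SHI). Both favour this order, and nothing is read from the split. Directions of peaks and counts crossed as the names did. Of the 76 regions higher in co-SHI columns, 15 had a peak in a list labelled co-SHI and 63 in a list labelled SHI, and of the 115 lower, 96 had one in a co-SHI list and 7 in a SHI list. Over all cultured-only regions, 15.6% had a peak in SHI-labelled lists only, 5.13% in co-SHI-labelled lists only and 12.25% in both. Peaks of SHI-labelled lists were thus the more common at cultured-only regions in general. Leaving out 1 column moved the count to between 81 (without co-SHI 1) and 593 (without co-SHI 3). The 76 higher calls fell to 7 without co-SHI 1, 14 without co-SHI 2, 28 without SHI 1 and 23 without SHI 2, and reached 343 without co-SHI 3. The 115 lower calls fell to 43 without SHI 3 and 74 without co-SHI 1, and reached 250 without co-SHI 3.

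**Figure D5:**
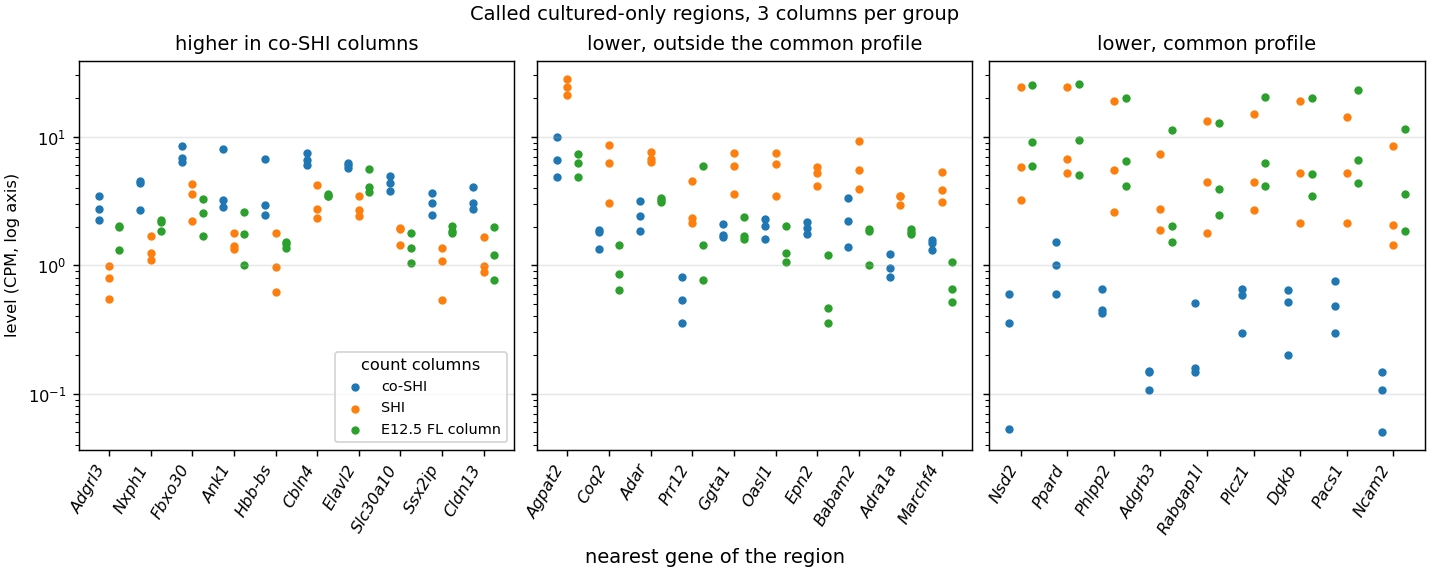
Level (CPM, log axis) in each column at named cultured-only regions called between co-SHI (blue) and SHI (orange), with the E12.5 FL columns (green), 3 points per group. Left, regions higher in co-SHI; middle, regions lower in co-SHI outside the common profile; right, regions of the common profile, where all co-SHI columns lie below all SHI and E12.5 FL columns.

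The 76 regions higher in the co-SHI columns had a median log2 fold change of 1.44, and 27 of them had no gene within 50 kb. Hbb-bs, a beta-globin gene of adult red cells, had 2.45, 2.92 and 6.68 CPM in co-SHI, 1.78, 0.962 and 0.622 CPM in SHI and 1.37, 1.52 and 1.45 CPM in the E12.5 FL columns at its gene end (chr7:103827711-103828250, log2 fold change 1.79, SE 0.39, edgeR adjusted p = 0.023). Ank1, the ankyrin of the red cell membrane skeleton, had 2.83, 3.23 and 8.01 CPM in co-SHI, 1.34, 1.79 and 1.42 CPM in SHI and 1.01, 1.74 and 2.61 CPM in the E12.5 FL columns (chr8:23053940-23054472, log2 fold change 1.63, SE 0.35, adjusted p = 0.022). In both, co-SHI 3 was more than double the other co-SHI columns, and without it neither was called (log2 fold change 1.25 and adjusted p = 0.092 in edgeR for Hbb-bs, 1.03 and 0.11 for Ank1). At Hbb-y, the embryonic beta-like globin gene, a region 12419 bp from the gene had 3.52, 2.52 and 5.05 CPM in co-SHI, 1.34, 2.06 and 0.889 CPM in SHI and 0.596, 0.762 and 1.1 CPM in the E12.5 FL columns (log2 fold change 1.42, SE 0.35, adjusted p = 0.045 in edgeR and 0.11 in DESeq2, 0.095 in edgeR without co-SHI 3). Of 56 tested cultured-only regions of erythroid genes, 2 rose and 0 fell, 13 had an unadjusted p under 0.05, and their median log2 fold change was -0.02. As shares, 3.57% of the erythroid regions were called, against 0.282% of the 47868 cultured-only regions tested near a named gene (135). An unadjusted p under 0.05 was found in 23.2% of the erythroid regions, against 9.28% (4440), and the median log2 fold change over the 47868 was 0.01. At gene ends, the summed level per erythroid marker was 11.6 to 15.4 CPM in co-SHI, highest in co-SHI 3, 11.8 to 13.6 CPM in SHI and 8.0 to 8.93 CPM in E12.5 FL columns. Regions lay at 4 of 7 markers, none at Hba-a1, with Gata1 and Alas2 outside the autosomes counted, and the sum was divided by all 7. The stem and progenitor, hepatocyte, macrophage, endothelial, stromal and trophoblast marker lists were also highest in co-SHI 3 among the co-SHI columns. Macrophage markers had 10.2 to 12.2 CPM per marker in co-SHI, 11.3 to 12.3 CPM in SHI and 9.14 to 9.77 CPM in E12.5 FL columns. Endothelial markers had 9.95 to 12.9 CPM, 11.4 to 12.6 CPM and 9.17 to 10.0 CPM in the same order. The part of erythroid markers in these 3 calls was not tested.

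The other named higher regions lay near Adgrl3, an adhesion receptor of synapses (mean 2.81 ± 0.63 CPM in co-SHI and 0.777 ± 0.22 CPM in SHI, log2 fold change 1.83), and Nxph1, a neurexin ligand (3.85 ± 1.0 CPM in co-SHI and 1.35 ± 0.31 CPM in SHI, log2 fold change 1.52). Cbln4, a cerebellin of synapses, had 6.7 ± 0.74 CPM in co-SHI and 3.08 ± 0.98 CPM in SHI (1.12), and Elavl2, a neuronal RNA-binding protein, 5.98 ± 0.25 CPM in co-SHI and 2.84 ± 0.54 CPM in SHI (1.12). Fbxo30, a ubiquitin ligase subunit, had 7.21 ± 1.1 CPM in co-SHI and 3.36 ± 1.0 CPM in SHI (1.13), and Slc30a10, a manganese exporter, 4.36 ± 0.56 CPM in co-SHI and 1.77 ± 0.3 CPM in SHI (1.32). Ssx2ip, a centrosome protein, had 3.04 ± 0.59 CPM in co-SHI and 0.992 ± 0.42 CPM in SHI (1.67), and Cldn13, a claudin, 3.28 ± 0.71 CPM in co-SHI and 1.17 ± 0.41 CPM in SHI (1.54). Adjusted p in edgeR ran from 0.018 to 0.031 over the 10 regions named by the rule. Each kept its direction and lost the call without any 1 of at least 3 libraries, Hbb-bs for example without co-SHI 3, SHI 2 or SHI 3, with adjusted p of 0.053 to 0.21 where calls were lost. Of the 139 tested regions of the neuronal and sensory list, edgeR and DESeq2 called 0, and 18 (12.9%) had an unadjusted p under 0.05, against 9.28% over all tested near a named gene. Their median log2 fold change was 0.24, against 0.01 over all tested near a named gene. A positive median was not particular to this list. It was 0.167 over the 13923 tested cultured-only regions without a gene within 50 kb, and 0.006 over those in gene bodies. The mean of the E12.5 FL columns lay between those of co-SHI and SHI at the 10 regions except Fbxo30 and Slc30a10, where it was below both. Across the 22 gene lists with no call, edgeR and DESeq2 called 0 of 1285 tested regions, and 104 (8.09%) had an unadjusted p under 0.05, again beside 9.28% near any named gene. The interferon response list, singled out after its values were seen, had 6 of 23 (26.1%).

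The lower calls were split by how closely they followed 1 profile of the columns. In 62 of the 115, the columns followed a single profile that SHI and E12.5 FL columns shared. The profile was taken, after the values were seen, from 9 of the 10 regions the naming rule picked, as the mean log2 level in the 9 columns. Among all regions, 98 matched it with r of 0.9 or more and a range of at least 3 log2 units, of which 89 were cultured-only, 2 shared and 7 on X. The 9 regions match the profile in part by construction, and the split rests on a cutoff applied to the same values. The Prr12 region, left outside by this cutoff, also had SHI 3 and E12.5 FL 3 as its highest columns. The 89 lay on all 19 autosomes, 35 of them without a gene within 50 kb and 35 in gene bodies, with 1 at a gene end. Their median level was 0.427, 0.403 and 0.297 CPM in co-SHI 1, 2 and 3, 1.43, 2.61 and 7.82 CPM in SHI 1, 2 and 3 and 2.5, 1.86 and 10.6 CPM in E12.5 FL 1, 2 and 3. SHI 3 and E12.5 FL 3 were the high columns, and no co-SHI column reached any other. None of the 89 had a peak in a developmental or SHI-labelled list, 68 had one in the list labelled co-SHI 3, which followed the column SHI 3, 5 in co-SHI 2 and 1 in co-SHI 1. Nsd2, a histone methyltransferase, had 0.0534, 0.353 and 0.594 CPM in co-SHI, 3.21, 5.77 and 24.4 CPM in SHI and 9.05, 5.93 and 25.2 CPM in the E12.5 FL columns in its gene body (chr5:33857440-33857948, log2 fold change -5.14, SE 0.54, adjusted p = 6e-07). Ppard, a lipid-sensing nuclear receptor, had 1.01, 1.51 and 0.594 CPM in co-SHI, 5.17, 6.74 and 24.3 CPM in SHI and 9.41, 5.04 and 25.9 CPM in the E12.5 FL columns (log2 fold change -3.48, SE 0.39). Regions near Phlpp2, a phosphatase of AKT (log2 fold change -4.1), Adgrb3, an adhesion receptor of brain (-4.8), Rabgap1l, a Rab regulator (-4.46), Plcz1, the sperm phospholipase (-3.78), Dgkb, a diacylglycerol kinase (-4.3), Pacs1, a sorting protein (-3.73), and Ncam2, a neural adhesion protein (-5.26), repeated the order. These 9 calls were kept in edgeR without any 1 library and in DESeq2. The source of the common profile was not tested.

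Outside that profile 53 regions were lower in the co-SHI columns, with a median log2 fold change of -1.48. The 10 of smallest p, 1 per gene, were taken by the naming rule once the common profile was set aside, a step chosen after the values were seen. Agpat2, an acyltransferase of phospholipid synthesis, led with 4.86, 6.6 and 9.94 CPM in co-SHI, 21, 28.2 and 24.4 CPM in SHI and 4.82, 7.28 and 6.26 CPM in the E12.5 FL columns (chr2:26595592-26596557, log2 fold change -1.78, SE 0.18, edgeR adjusted p = 4.5e-07). The 3 SHI columns stood apart from the other 6, though no list had a peak there. Coq2, of coenzyme Q synthesis, had 1.81, 1.87 and 1.34 CPM in co-SHI, 8.56, 3.02 and 6.22 CPM in SHI and 1.43, 0.847 and 0.638 CPM in the E12.5 FL columns (log2 fold change -1.82, SE 0.3, adjusted p = 0.00088). Adar, an RNA-editing deaminase, had 2.4, 3.18 and 1.85 CPM in co-SHI, 7.58, 6.74 and 6.4 CPM in SHI and 3.22, 3.09 and 3.31 CPM in the E12.5 FL columns at a gene end (log2 fold change -1.44, SE 0.24, adjusted p = 0.0017). Oasl1, an interferon-induced gene, had 2.03, 1.61 and 2.3 CPM in co-SHI, 7.4, 3.44 and 6.13 CPM in SHI and 1.25, 1.06 and 2.03 CPM in the E12.5 FL columns at a gene end, 90 bp from a developmental region (log2 fold change -1.54, SE 0.28, adjusted p = 0.0038). In these 3 regions SHI was above both other groups with no overlap. Agpat2, Coq2 and Adar stayed called without any 1 library, and Oasl1 was lost without SHI 1 (edgeR adjusted p = 0.063).

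SHI was also the highest by mean at the other 6. Ggta1, a galactosyltransferase, had 1.82 ± 0.23 CPM in co-SHI, 5.65 ± 2.0 CPM in SHI and 1.89 ± 0.43 CPM in the E12.5 FL columns. Epn2, an endocytic adaptor, had 1.95 ± 0.2 CPM in co-SHI, 5.04 ± 0.85 CPM in SHI and 0.669 ± 0.45 CPM in the E12.5 FL columns. Babam2, of a BRCA complex, had 2.31 ± 0.98 CPM in co-SHI, 6.22 ± 2.7 CPM in SHI and 1.59 ± 0.5 CPM in the E12.5 FL columns. Here SHI stood apart from both other groups. Adra1a, an adrenergic receptor, had 1.0 ± 0.21 CPM in co-SHI, 3.28 ± 0.3 CPM in SHI and 1.82 ± 0.083 CPM in the E12.5 FL columns. Marchf4, a ubiquitin ligase, had 1.45 ± 0.13 CPM in co-SHI, 4.1 ± 1.1 CPM in SHI and 0.745 ± 0.28 CPM in the E12.5 FL columns. Prr12, a nuclear protein, had 0.568 ± 0.23 CPM in co-SHI, 3.0 ± 1.3 CPM in SHI and 2.7 ± 2.8 CPM in the E12.5 FL columns, of which E12.5 FL 3 was at 5.92 CPM, above all SHI columns. These 6 lost the call without SHI 3 (edgeR adjusted p of 0.052 to 0.19), except Adra1a, which lost it without co-SHI 2, SHI 1 or SHI 2 (0.061 to 0.093). Epn2 also lost it without co-SHI 1 (0.099) or SHI 2 (0.081). Babam2 also lost it without co-SHI 1 (0.15) or co-SHI 2 (0.063), and after thinning to the smallest library (0.057). Marchf4 missed the threshold in 3 alternatives in all. Of the 53 regions, 39 had a peak in a list labelled co-SHI and 7 in a list labelled SHI.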

How the data were processed

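ATAC-seq was analysed in 6 cultured libraries and 3 columns named E12.5 FL, with 26 developmental libraries used for their regions and peaks. The submitters' processing notes name the build mm10 and the tools DiffBind, HOMER, MACS2, deepTools and Trim Galore. The aligner, peak settings, Tn5 shift, duplicate removal and merging of regions, any of which can move counts and borders, are not given in the sources used here. The deposited tables hold raw counts per region. The deposited peak lists hold the authors' display score, fold enrichment ratio, −log10 p and −log10 q per peak, of which fold and −log10 q were used.

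Members and gene lists were chosen with earlier results of these data known. Regions were overlapped with bedtools 2.31.1. Genes are nearest spans of GRCm38.p6 within 50 kb, predicted genes left out; without strand, a gene end is either end of a span within 1 kb, and exons, introns and UTRs were not told apart. The RefSeq promoter windows used here leave out chromosome 18. Coordinates are mm10, counted from 1. Levels are CPM scaled by TMM over the 9 columns, and log2 levels used a pseudocount of 0.1. Calls are from edgeR 4.0.16 (R 4.3.3; filterByExpr with a minimum count of 10, TMM, quasi-likelihood test, Benjamini-Hochberg adjustment at 0.05) on the 6 cultured columns. Shares were tested by exact permutation over libraries, two-sided.

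Named regions were the 10 of smallest p each way, 1 per gene, among calls without overlap of the groups, with a log2 fold change of 1 or more in size and a level over 1.72 CPM, the median of cultured-only regions tested. Also named were the 10 of highest level, the 3 highest without a gene, the genes with most regions, at most 4 calls per list and 7 fixed genes. The miRNA regions, promoter sequences and the regions outside the common profile were chosen after their values were seen. Alternatives were DESeq2 1.42.0, its size factors, total counts, loess offsets, TMM from shared regions, other filters, thinning, added E12.5 FL columns, a replicate block, leaving out each library, and other distances, windows and peak thresholds.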

Additional observations from a re-analysis of the deposited data

How the results depend on the processing

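Cultured-only regions called between co-SHI and SHI numbered 191. DESeq2 called 83, thinning to the smallest library gave 103, a fit with the E12.5 FL columns gave 339, and leaving out 1 library gave 81 to 593. Its other alternatives gave 161 to 252, and 129 without the co-varying regions, which were set aside after seeing the data (lower calls 53). Whether replicate numbers pair the columns stayed unsettled. Same-numbered deviations correlated at -0.02 to 0.06 and those of different numbers at -0.063 to 0.035. The highest were between the columns numbered 3 (0.062) and those numbered 2 (0.045). With a replicate block 227 regions were called. The log2 odds ratio of the share of counts was 0.04 and kept its sign except without co-SHI 1 (-0.013), with a range of -0.013 to 0.112 over the columns left out and 0.04 with the replicate block. For the share of peaks it was -1.19, and -1.71 to -0.54 over the libraries left out. The share of cultured-only regions at gene ends was 5.48%, with 3.34% for a window of 500 bp, 8.9% for 2 kb, 6.39% for regions with peaks in 2 or more cultured lists and 4.23% for regions at least 500 bp from a developmental region. The causes were not tested. No named call turned its direction. Of 20 regions named by the rule, 8 missed the threshold without co-SHI 1, co-SHI 2 or SHI 3, and 2 with DESeq2. Single regions rest on a median of 13 to 34 counts per cultured column, and fold changes of regions near 0 in co-SHI depend on few counts.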
